A study of Mus musculus with 4 samples.

Results

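This section describes mouse genes that are transcribed from more than 1 annotated start in neutrophils, and how the output of each gene was divided among its starts with and without Srf. In the deposited table of transcription start groups, where each row pools the annotated transcripts of a gene that share a start, 1994 of 23253 genes had 2 or more rows. Of these, 645 genes, or 2.77% of all genes in the table, had at least 2 rows whose larger genotype value reached 1 FPKM (fragments scaled to transcript length and to the size of the library), and these are the members. They held 1507 rows, of which 1385 reached 1 FPKM and 122 did not. The number of expressed starts was 2 in 570 genes, 3 in 65, 4 in 8, 8 in 1 and 10 in 1. The cells were mature neutrophils sorted from bone marrow as Gr1 high, 7/4 high and SSC high, from Srf WT mice (2 samples) and Srf KO mice (2 samples). Srf encodes serum response factor, a transcription factor of the actin cytoskeleton and of immediate-early genes, and the series asks about its part in neutrophil migration. Strain, age, sex and the way in which Srf was removed are not given in the sources used here.

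Many mammalian genes have alternative promoters. A start further along a gene can leave out the first exons, so that the transcripts differ in their leader, in the amino end of the protein or in neither. Promoters rich in CpG dinucleotides are commonly active in many tissues, while promoters poor in CpG, some with a TATA box, are more often restricted to certain cell types. Serum response factor binds the CArG box, CC followed by 6 bases of A or T and then GG, and works with myocardin-related cofactors, one of which is encoded by the member Mkl1.

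The members were chosen by their FPKM in both genotypes, and the same values give the changes of share, so shares, folds and calls are described here with no test of their own. Each genotype has 1 FPKM value per start, pooled over its samples by the authors, so no spread between samples could be had and read depth is unknown. Every log2 fold is Srf KO over WT, its ± is a standard error obtained by dividing the fold by the statistic that the authors deposited, and a start is called where the authors' adjusted p is at most 0.05. That model estimates each start from reads along its whole transcripts and not from sequenced 5′ ends. Per length, Srf itself was at 13.7 FPKM in WT samples and 0.439 FPKM in Srf KO samples. It has 1 start row and is no member, and its log2 fold in the authors' deposited table was -4.97 ± 0.27. Among markers of other cells in the authors' gene table, those of T and NK cells were called higher in 17 of 18 cases, with a summed level of 37.3 FPKM in WT and 93.7 in Srf KO. The same held for 6 of 12 B cell, 10 of 13 erythroid, 9 of 12 platelet, 10 of 14 monocyte and macrophage, and 9 of 10 eosinophil, basophil and mast cell markers in the authors' deposited table, and 3 monocyte and macrophage markers were called lower. Of 8 tested neutrophil markers, 6 were called lower and 0 higher in the authors' deposited table. Camp, Ltf, Ngp, S100a8 and S100a9 are listed at 0 in at least 1 genotype where the table marks too many reads. The part of these other cells in the changes of share was not tested.

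Sequences are shown for the starts of 5 genes whose shares differed widely between genotypes or that carry a CArG box. Each runs 5′ to 3′ from 220 bases before to 20 bases after the annotated start and was taken from RefSeq start windows on GRCm38.p6. Capitals mark CArG boxes, TATAAA on either strand (TTTATA when reversed) and GGGCGG on either strand (CCGCCC when reversed). In Tiam1, an activator of the GTPase Rac, the losing start lies on the minus strand at chr16:89974680-89974919 and the gaining start on the same strand at chr16:89818333-89818572.
Tiam1 losing start: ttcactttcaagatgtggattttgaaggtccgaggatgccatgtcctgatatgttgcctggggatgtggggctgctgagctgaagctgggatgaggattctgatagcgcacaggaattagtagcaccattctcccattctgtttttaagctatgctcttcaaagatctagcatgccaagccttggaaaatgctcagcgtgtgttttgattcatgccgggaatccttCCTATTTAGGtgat
Tiam1 gaining start: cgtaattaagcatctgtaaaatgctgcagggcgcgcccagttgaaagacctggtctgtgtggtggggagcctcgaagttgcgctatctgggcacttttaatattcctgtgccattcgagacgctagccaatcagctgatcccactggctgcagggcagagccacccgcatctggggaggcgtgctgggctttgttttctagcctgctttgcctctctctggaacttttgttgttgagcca
In Pik3r1, a regulatory subunit of phosphoinositide 3-kinase, the losing start is at chr13:101768198-101768437 and the gaining start at chr13:101692611-101692850, both on the minus strand. The losing window holds 4 GGGCGG matches and the gaining one a reversed TATAAA.
Pik3r1 losing start: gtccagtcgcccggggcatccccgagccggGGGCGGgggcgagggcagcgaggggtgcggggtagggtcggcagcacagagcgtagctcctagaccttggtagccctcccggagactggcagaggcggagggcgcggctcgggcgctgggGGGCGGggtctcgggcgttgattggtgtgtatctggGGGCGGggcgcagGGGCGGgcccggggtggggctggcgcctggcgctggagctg
Pik3r1 gaining start: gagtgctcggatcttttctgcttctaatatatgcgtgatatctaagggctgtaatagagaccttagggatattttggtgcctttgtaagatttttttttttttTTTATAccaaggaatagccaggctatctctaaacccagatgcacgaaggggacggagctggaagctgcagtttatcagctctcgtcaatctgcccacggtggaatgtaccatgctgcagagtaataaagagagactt
In Gcnt1, a glycosyltransferase that builds glycans of selectin ligands, the losing start is at chr19:17356648-17356887 and the gaining start at chr19:17372825-17373064, both on the minus strand.
Gcnt1 losing start: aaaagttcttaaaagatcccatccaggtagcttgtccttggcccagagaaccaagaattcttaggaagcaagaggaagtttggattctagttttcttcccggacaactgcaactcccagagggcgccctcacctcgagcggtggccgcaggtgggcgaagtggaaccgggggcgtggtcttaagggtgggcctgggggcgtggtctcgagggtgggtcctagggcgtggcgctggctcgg
Gcnt1 gaining start: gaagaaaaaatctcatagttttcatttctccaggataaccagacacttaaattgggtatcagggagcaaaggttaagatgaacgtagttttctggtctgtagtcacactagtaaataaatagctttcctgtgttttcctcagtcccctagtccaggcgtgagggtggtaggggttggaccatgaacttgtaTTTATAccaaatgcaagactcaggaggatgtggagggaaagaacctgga
In Aldoa, the glycolytic enzyme aldolase A, the losing start is at chr7:126799235-126799474 and the gaining start at chr7:126800428-126800667, both on the minus strand. The gaining window has no CpG in its whole 300 bases.
Aldoa losing start: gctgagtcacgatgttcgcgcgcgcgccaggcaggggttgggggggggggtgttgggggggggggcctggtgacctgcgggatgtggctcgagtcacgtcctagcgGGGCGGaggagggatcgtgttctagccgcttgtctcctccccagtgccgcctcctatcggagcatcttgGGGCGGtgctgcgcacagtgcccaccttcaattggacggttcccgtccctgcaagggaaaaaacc
Aldoa gaining start: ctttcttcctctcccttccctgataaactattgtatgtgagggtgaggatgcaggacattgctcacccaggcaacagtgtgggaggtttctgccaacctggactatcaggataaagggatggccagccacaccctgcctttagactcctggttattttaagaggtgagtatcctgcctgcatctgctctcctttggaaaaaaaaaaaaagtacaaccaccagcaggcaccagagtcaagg
In Rnf128, a membrane ubiquitin ligase picked after its values were seen, the losing start is at chrX:139610400-139610639 on the plus strand.
Rnf128 losing start: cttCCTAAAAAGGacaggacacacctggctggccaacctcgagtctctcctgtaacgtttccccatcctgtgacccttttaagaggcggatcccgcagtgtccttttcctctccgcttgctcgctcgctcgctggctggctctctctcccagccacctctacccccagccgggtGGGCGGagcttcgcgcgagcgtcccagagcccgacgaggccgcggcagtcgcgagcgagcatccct

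The share of a start is its FPKM as a percent of the summed FPKM of all starts of the gene in that genotype, and the change of share is Srf KO minus WT in percentage points. Taking in each member the start that moved most, the median absolute change was 11.1 points, with quartiles of 4.54 and 23.9 points and a maximum of 84.5 points. The maximum is that of Gimap8, whose summed level was 1.01 FPKM in WT and 2.38 in Srf KO, whose test failed, and whose change was 35.5 points once 1 FPKM was added to each start. It was at least 10 points in 342 members (53.0%), at least 20 in 204 (31.6%), at least 30 in 121 and at least 50 in 24. Over the 1647 genes with 2 or more starts above 0 in both genotypes, 38.9% reached 10 points and 25% reached 20 points. In 141 members (21.9%) the start with the largest share in WT was not the one with the largest share in Srf KO. Of the 204 genes with a change of 20 points or more, 69 were called as genes in the authors' deposited table, 132 were tested and not called, and 3 were not tested, where 35.5% of all 12634 tested genes were called (17.7% higher). Low genes showed larger changes: the median was 15.8 points in the 78 members with a mean summed level under 5 FPKM, 12 in 264 members from 5 to 20, 9.96 in 158 from 20 to 50 and 8.49 in 145 at 50 or more. At the threshold of the rule, the smaller start of Gimap8, Ttc15 and Sfmbt1 was 1.01 FPKM in its higher genotype, just inside. The start that kept Trim39, Tmem141 and Fkbp8 just outside was 0.998, 0.989 and 0.979 FPKM.

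**Figure D1:**
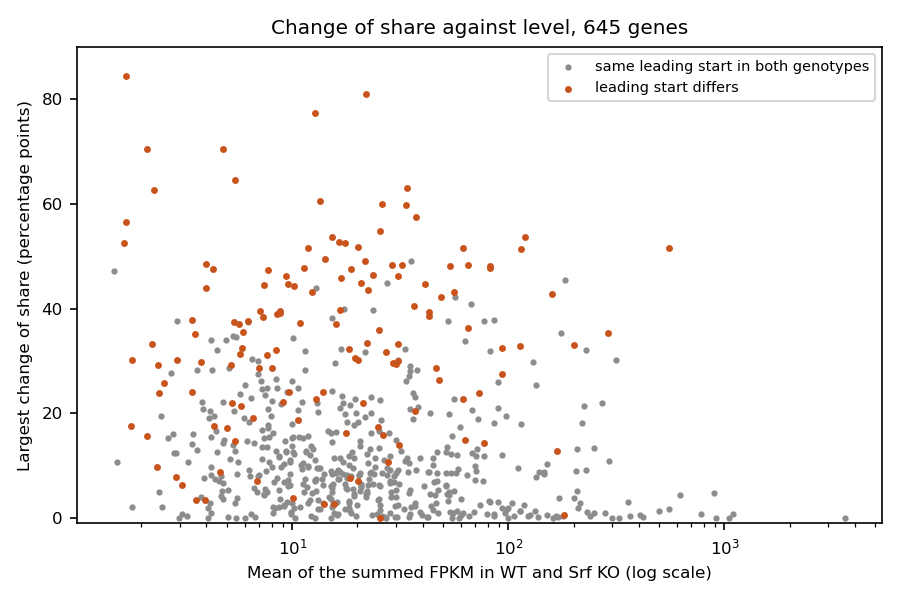
Largest absolute change of share per member gene (vertical axis, percentage points) against the mean of its summed FPKM in WT and Srf KO (horizontal axis, log scale), 1 point per gene. Orange points are the 141 genes whose leading start differs between genotypes, and changes of 20 points or more occur at every level, in 39.7% of the lowest and 25.5% of the highest class.

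Precision per start was lower than per gene. The median implied standard error of the log2 fold was 0.50 for expressed starts of members (upper quartile 1.08), against 0.22 for genes with a single start at 1 FPKM or more. Of 1267 tested member starts, 289 (22.8%) were called in the authors' deposited table, 110 higher and 179 lower. Over all 13042 tested starts, 31.2% were called, 15.1% higher and 16.1% lower. Among single-start genes the share called was 35.4% in the authors' deposited table. A combined standard error for the gaining start against the losing start was at hand in 549 members, with a median of 1.05 on the log2 scale. It treats the 2 starts as independent, although reads along their transcripts can be shared. The log2 folds differed by more than 2 such errors in 134 of the 549. With a change of 10 points or more this held in 131 of 271. These counts describe the values that chose the members and are no test.

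Among members with a summed level of at least 5 FPKM in both genotypes, whose gaining and losing starts were both tested, the 12 largest changes of share were in Gcnt1, Rbm43, Dnase1l1, Arsg, D19Wsu162e, Eps15, B230312A22Rik, Pik3r1, Tcn2, Rbpj, Limk2 and Satb1, and ranged from 51.9 to 81.0 points. Gcnt1 had 3 expressed starts. The start outermost on the gene was listed at 0 in WT and was 10.1 FPKM in Srf KO, where it held 81.0% of the gene. The losing start, 16177 bases further into the gene, was 18.9 FPKM in WT and 1.73 in Srf KO, and the third was 12.4 and 0.644 FPKM. In the authors' deposited table the latter starts had log2 folds of -3.45 ± 1.31 (adjusted p = 0.031) and -4.26 ± 0.80 (adjusted p = 2.43e-06), and the gene as a whole fell by 1.33 ± 0.20. Eps15, an adaptor of clathrin-coated pits, was 0.376 FPKM in WT and 21.1 in Srf KO at the start 62791 bases downstream. Its upstream start was 38.1 FPKM in WT and 15.0 in Srf KO, so the downstream share went from 0.977% to 58.4%. The gene's log2 fold in the authors' deposited table was -0.09 ± 0.21. Pik3r1 had the same order: the downstream start, 75587 bases along the gene, was 1.19 and 8.83 FPKM in WT and Srf KO, and the upstream start 14.8 and 5.62 FPKM. The upstream start was called lower in the authors' deposited table (log2 fold -1.40 ± 0.26, adjusted p = 2.53e-06), and the downstream start was not called (2.90 ± 1.40, adjusted p = 0.101). Their transcripts were 7113 and 2923 bases long.

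Rbm43, an RNA-binding protein gene, was 29.1 FPKM in WT and 6.72 in Srf KO at its losing start and 5.76 and 26.3 FPKM at a start 363 bases upstream. Dnase1l1, which encodes a relative of deoxyribonuclease I, was 11.6 and 4.71 FPKM at the losing start and 0.840 and 9.68 FPKM at the gaining start, 601 bases upstream. Arsg, a lysosomal sulfatase gene, was 23.9 and 4.64 FPKM at the upstream start and 5.71 and 17.8 FPKM at a start 70380 bases downstream. In each of these genes the leading start differed between genotypes while the summed level differed by less than 1.5 times. Rbpj, the DNA-binding partner of Notch, was 17.7 FPKM in WT and 5.91 in Srf KO at its losing start. At the gaining start, 34637 bases upstream, Rbpj was 0.895 FPKM in WT and 8.08 in Srf KO. Satb1, a chromatin organiser of lymphoid and progenitor cells, was 15.7 and 4.67 FPKM at its losing start and 3.99 and 12.7 FPKM at the gaining one. Tcn2, a carrier of vitamin B12, has 3 expressed starts close together. The smallest in WT, at 1.01 FPKM, was 47.6 FPKM in Srf KO, and the others were 84.7 and 64.9 FPKM in WT and 20.7 and 19.4 FPKM in Srf KO. The gaining start of Tcn2 lies 118 bases from the losing start. D19Wsu162e was 40.4 and 8.09 FPKM at one start and 2.63 and 15.7 FPKM at the other, 24317 bases downstream. B230312A22Rik was 18.1 and 3.21 FPKM at its coding start and 8.47 and 21.1 FPKM at a start of a noncoding transcript.

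**Figure D2:**
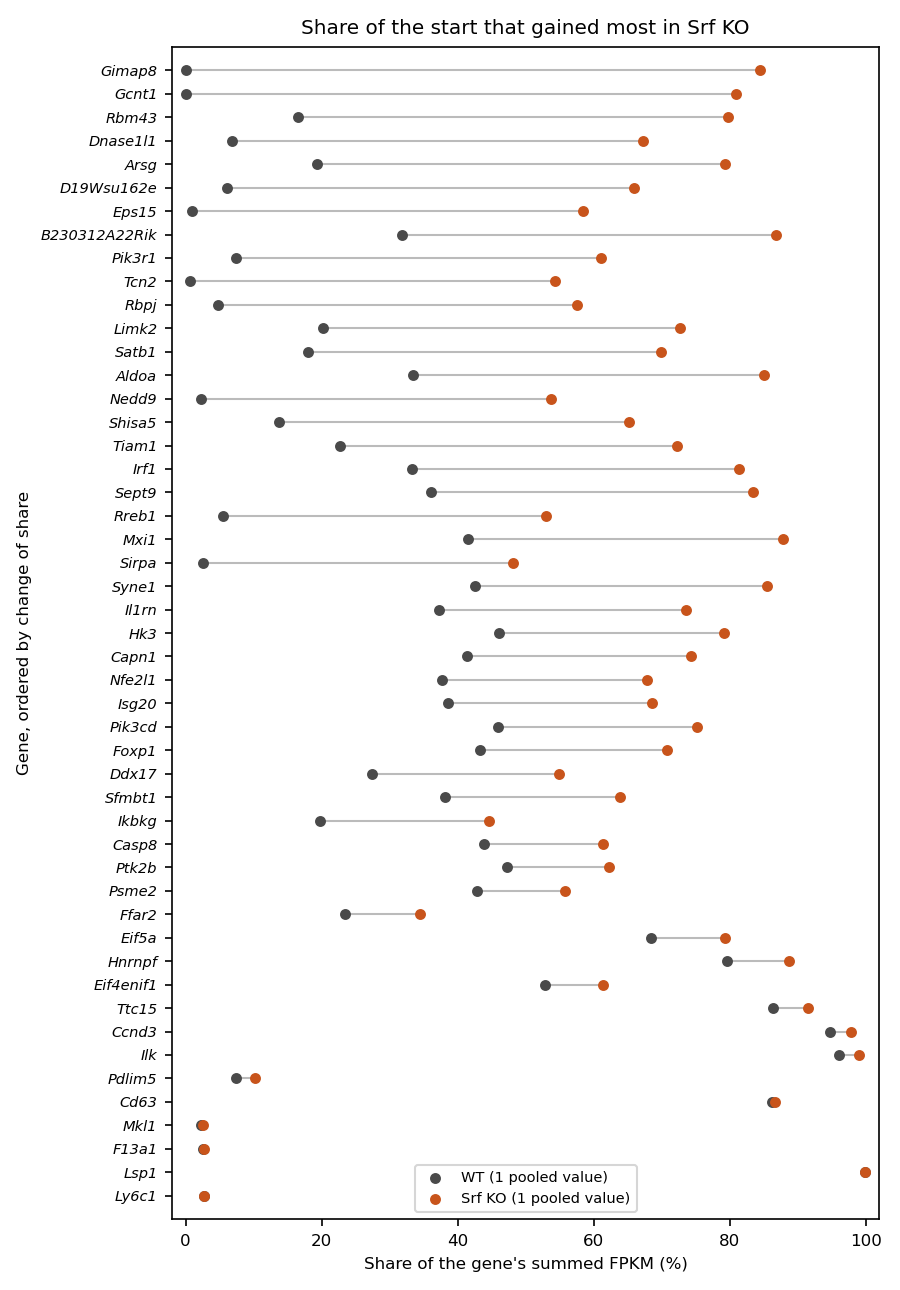
Share of the summed FPKM of each named gene that belongs to the expressed start with the highest gain (horizontal axis, percent), in WT (grey) and Srf KO (orange), 1 pooled value per genotype with no error. Genes are ordered by the change, and the upper rows pass from a minor to a leading start, as in Eps15 from 0.977% to 58.4%, while Ly6c1, Lsp1, F13a1, Mkl1 and Cd63 at the foot differ by less than 1 point.

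In 24 members the authors' deposited table called 1 start higher and another lower. Of the 813 genes with 2 or more tested starts, 3.08% had such calls. The whole gene was tested and not called in 20 of the 24, called lower in 4 and called higher in 0. Besides Rbm43, Dnase1l1, Eps15, B230312A22Rik, Rbpj, Tcn2 and Gcnt1, the named genes among them are Nedd9, Rreb1, Irf1 and Mxi1. Nedd9, a docking protein of integrin and focal adhesion signalling, was 80.2 FPKM in WT and 18.8 in Srf KO at its upstream start, and 1.82 and 21.9 FPKM at a start 128046 bases downstream. In the authors' deposited table these starts had log2 folds of -2.09 ± 0.23 and 3.59 ± 0.90, and the gene one of -1.01 ± 0.20. Rreb1, a zinc finger transcription factor, was 8.01 and 2.79 FPKM at a coding start and 0.50 and 3.38 FPKM at an upstream start of a noncoding transcript. Irf1 encodes a transcription factor of the interferon response. Its starts, 481 bases apart, were 63.9 FPKM in WT and 12.7 in Srf KO upstream, and 31.8 and 55.3 FPKM downstream. Mxi1, a Max-binding repressor that opposes Myc, was 17.6 and 2.87 FPKM at the upstream start and 13.8 and 24.8 FPKM at a start 19890 bases downstream. The downstream transcript of Mxi1 is 1018 bases long and the upstream one 2627 bases.

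**Figure D3:**
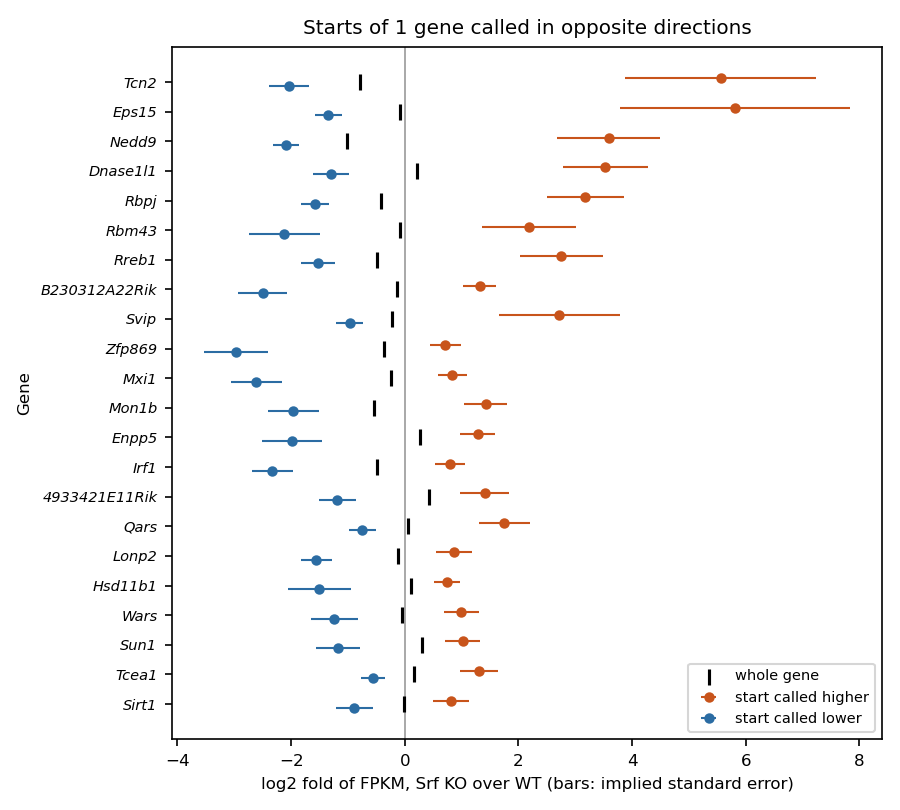
The log2 fold, Srf KO over WT, from the authors' deposited table for the gaining start (orange) and the losing start (blue) of genes with calls in opposite directions, with bars of 1 implied standard error and a black tick for the whole gene. Gcnt1 and Rnf128 are left out because a start is listed at 0 in WT. The ticks lie between the starts in every gene drawn, which must be so because the gene's FPKM is the sum of its starts.

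Limk2, Tiam1 and Sept9 act on the cytoskeleton and are shown because they had large changes. Other members that act on actin did not: the change was 0.896 points in Capzb, a filament capping subunit, and 1.03 points in Evl, an Ena/VASP protein, both named after their values were seen. Limk2 encodes a kinase that inactivates cofilin. Its upstream start was 13.0 FPKM in WT and 4.36 in Srf KO, and the start 53033 bases downstream was 3.50 and 12.7 FPKM. The sum stayed near 17.4 and 17.5 FPKM, and the downstream start was called higher in the authors' deposited table (log2 fold 1.86 ± 0.72, adjusted p = 0.0336). Tiam1 was 8.42 FPKM in WT and 3.87 in Srf KO at the upstream start printed above, which was called lower in the authors' deposited table (-1.12 ± 0.43, adjusted p = 0.0328). The downstream start of Tiam1, 156347 bases away, was 2.71 and 11.8 FPKM and was not tested by the authors. Sept9, a septin whose name the file holds as a date, was 64.7 and 9.88 FPKM at a start that was not tested and 36.5 and 51.8 FPKM at another 625 bases upstream. The latter was tested and not called in the authors' deposited table.

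Of 40 listed actin and contractile targets of SRF, 2 were members, Pdlim5 and Tpm1, and neither reached 10 points. Pdlim5, a PDZ and LIM domain protein of actin filaments, was 17.7 FPKM in WT and 7.87 in Srf KO at its leading start and 1.41 and 0.895 FPKM at the other, so the leading share was 92.6% and 89.8%. None of the 30 listed immediate-early genes was a member. Mkl1, the SRF cofactor, was 53.6 FPKM in WT and 28.8 in Srf KO at its leading start and 1.21 and 0.738 FPKM at another 85674 bases upstream. The leading start held 97.8% and 97.5%, and it was called lower in the authors' deposited table (log2 fold -0.90 ± 0.19, adjusted p = 2.93e-05).

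Adhesion genes had 4 members of 43 listed, and 0 of their 8 tested starts were called in the authors' deposited table, where 31.2% of all tested starts and 22.8% of those of members were called. Ptk2b, the focal adhesion kinase relative Pyk2, was 39.3 FPKM in WT and 19.4 in Srf KO at the upstream start and 35.3 and 31.9 FPKM at the start 67500 bases downstream. The leading start of Ilk, integrin-linked kinase, held 96.1% and 99.0%, and that of the tetraspanin gene Cd63 86.3% and 86.6%. Chemoattractant and receptor signalling had 13 members of 88, with a median change of 9.82 points. Here 14 of 27 tested starts were called lower and 0 higher in the authors' deposited table, beside 16.1% lower and 15.1% higher over all tested starts, and 13 were not called. Pik3cd, the catalytic subunit p110 delta, was 39.2 FPKM in WT and 4.10 in Srf KO at its losing start, and 40.2 and 28.4 FPKM at a start 35414 bases downstream. The losing start was called lower in the authors' deposited table (log2 fold -3.26 ± 1.13, adjusted p = 0.0172), and the other was not tested. Sirpa, an inhibitory receptor of myeloid cells, was 219 and 73.4 FPKM at one start and 5.78 and 67.9 FPKM at another. The gaining start of Sirpa had an implied standard error of 12.60 in the authors' deposited table, so its share is poorly determined.

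In the list of neutrophil granule and maturation genes 1 of 51 was a member, Il1rn, the antagonist of the interleukin 1 receptor, known for separate secreted and intracellular forms. Its starts were 67.8, 43.5 and 5.25 FPKM in WT and 3.14, 9.83 and 0.393 FPKM in Srf KO. All 3 were called lower in the authors' deposited table, with log2 folds of -4.43 ± 0.35, -2.15 ± 0.39 and -3.74 ± 1.20. The share of the middle one was 37.3% in WT and 73.6% in Srf KO, and it lies 22 bases from the first. Interferon and inflammation had 9 members of 74, of which 7 reached 10 points and 4 reached 20, with a median of 17.4 points, beside 53.0% and 31.6% of all members and a median of 11.1 points. Of their 19 tested starts, 2 were called higher and 6 lower in the authors' deposited table, beside 31.2% called over all tested starts. Isg20, an interferon-induced exonuclease, was 19.2 FPKM in WT and 9.48 in Srf KO at its upstream start and 12.1 and 20.7 FPKM at the start 470 bases downstream. In the authors' deposited table the upstream start of Isg20 was called lower and the downstream one was not called (log2 fold 0.78 ± 0.33, adjusted p = 0.057). Ikbkg, the regulatory subunit of the IκB kinase, was 1.83 and 2.68 FPKM at its gaining start, with an implied standard error of 2.05 for the log2 fold in the authors' deposited table.

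Haematopoietic transcription factors had 12 members of 83, with a median change of 6.73 points against 11.1 over all members. Of the 12, 5 reached 10 points and 3 reached 20 (Mxi1, Nfe2l1 and Foxp1), beside 53.0% and 31.6% of all members. Nfe2l1, a stress-responsive factor, was 10.1 FPKM in WT and 4.21 in Srf KO at the losing start, and 8.62 and 11.9 FPKM at a start 5375 bases downstream. No start of Nfe2l1 was called in the authors' deposited table. Foxp1, a forkhead factor, was 2.86 and 5.07 FPKM at the gaining start and 2.10 and 0.947 FPKM at a start 407087 bases upstream, and none of its starts was called. Among 2 members of the list of apoptosis and cell cycle genes, Casp8 was 9.59 and 17.3 FPKM at its downstream start, called higher in the authors' deposited table (0.85 ± 0.28, adjusted p = 0.0113), and 12.2 and 10.9 FPKM upstream. Ccnd3, which encodes cyclin D3, kept 94.7% and 97.8% of its output at 1 start. Of 101 genes listed as textbook cases of alternative promoters, 22 were members. A change of 10 points or more was seen in 12 of these and of 20 or more in 7, with a median of 12 points against 11.1 over all members. Lck and Kit, members that also mark T cells and mast cells or progenitors and are named after their values were seen, had summed levels of 2.22 and 5.36 FPKM in WT and 6.20 and 9.96 FPKM in Srf KO, with changes of 15.5 and 13.7 points.

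Abundant genes also led from different starts. Aldoa was 417 FPKM in WT and 61.5 in Srf KO at the CpG-rich start printed above, and 221 and 382 FPKM at the start 1193 bases upstream. The upstream start was called higher in the authors' deposited table (log2 fold 0.79 ± 0.27, adjusted p = 0.0165), and the other was not called (-2.76 ± 1.48, adjusted p = 0.145). Hk3, the myeloid hexokinase, was 141 and 28.9 FPKM at its upstream start, which was called lower in the authors' deposited table, and 121 and 110 FPKM at a start 481 bases downstream, which was not. Capn1, a calcium-dependent protease, was 95.8 and 16.3 FPKM at the start called lower in the authors' deposited table and 67.4 and 47.0 FPKM at another, 619 bases upstream, that was not called. Shisa5, a membrane protein of the endoplasmic reticulum, was 101 and 38.9 FPKM at the upstream start and 16.0 and 72.7 FPKM at one 16278 bases downstream. In the authors' deposited table the upstream start of Shisa5 was called lower and the downstream one was not called (log2 fold 2.18 ± 1.32, adjusted p = 0.201). Syne1, the nuclear envelope protein nesprin 1, was 73.5 and 21.2 FPKM at one start and 61.8 and 148 FPKM at another, and none of its starts was tested. Smaller differences were seen in Ddx17, an RNA helicase (27.6 points), and Psme2, a proteasome activator subunit (12.9 points), where no start was called.

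Genes with many start rows included Eif5a, Hnrnpf, Ffar2 and Eif4enif1, each with 4 expressed rows and changes of 8.59 to 13.9 points. No start of these was called. In Eif5a, Hnrnpf and Ffar2 some expressed rows were matched to the same position, among them the gaining and the losing start of Eif5a. These rows need not be distinct starts. The translation factor gene Eif5a was 167 FPKM in WT and 270 in Srf KO at its leading start. Ffar2, a receptor for short-chain fatty acids, was 7.91, 7.61, 5.59 and 2.60 FPKM at its starts in WT and 12.2, 6.89, 13.1 and 5.92 FPKM in Srf KO. The 10 rows of Rn4.5s, a small noncoding RNA, had the same 9.035 FPKM in WT and 10.953 in Srf KO each, and the gene table lists the same values, so these rows cannot be told apart and say nothing of a promoter. More than 1 locus was listed for 27 members and more than 1 chromosome for 6, and their rows can likewise be copies of a gene. At the other end, shares were nearly equal in F13a1, the A chain of factor XIII, in the leukocyte actin-binding gene Lsp1 and in Ly6c1, a surface antigen gene. The leading start of Lsp1 was 1177 FPKM in WT and 646 in Srf KO and held 99.9% in both. Ly6c1 was 275 and 355 FPKM at its leading start and F13a1 55.1 and 59.4 FPKM, each with about 97% of the output.

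Start positions could be placed for the gaining and the losing start of 573 members, through RefSeq names in GENCODE M21 on GRCm38. In 34 of these both starts fell on 1 position and in 87 they were 1 to 100 bases apart, so the word promoter is not apt for every pair of annotated starts. Another 186 pairs were over 100 and up to 1000 bases apart and 266 were further, 147 of them over 10000 bases, with a median of 956 and a maximum of 767769 bases. Wider pairs had larger changes. The median change was 9.03 points up to 100 bases, 9.93 from there to 1000 and 14.0 beyond 1000, and 25.3%, 26.3% and 39.1% of them reached 20 points. The gaining start was the downstream one in 299 of 539 genes, in 104 of the 175 with a change of 20 points or more, and in 68 of the 104 that were also over 1000 bases apart.

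**Figure D4:**
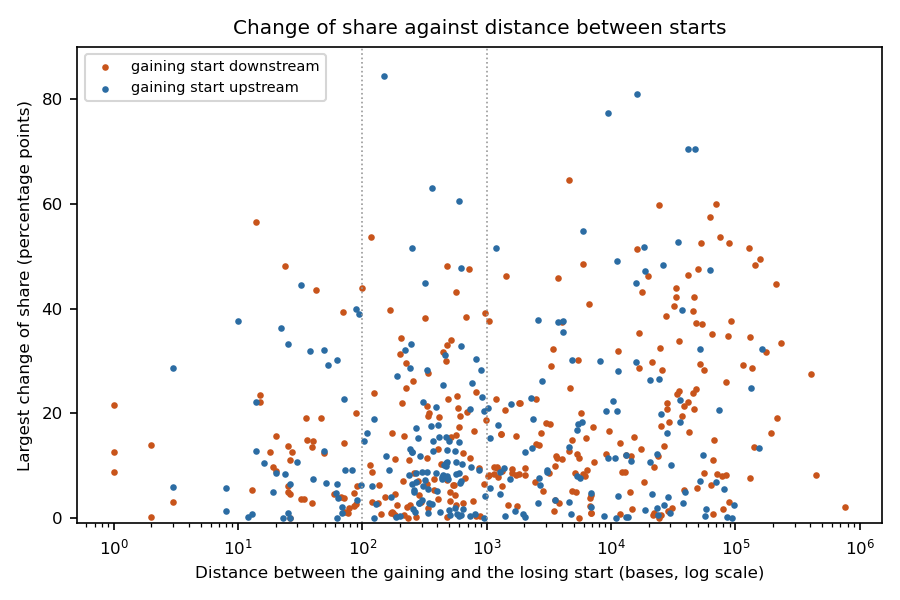
Largest absolute change of share (vertical axis, percentage points) against the distance between the gaining and the losing start (horizontal axis, bases, log scale), 1 point per gene, orange where the gaining start is downstream and blue where it is upstream. Dotted lines stand at 100 and 1000 bases, and 39.1% of the genes right of the second line reach 20 points, against 26.3% between the lines and 25.3% left of the first.

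The gaining transcript was the shorter one in 375 of 538 genes with unequal lengths (69.7%), in 128 of 173 with a change of 20 points or more (74.0%) and in 81 of 101 with 30 points or more (80.2%). For changes of 20 points or more the median length was 2627 bases for gaining and 3219 bases for losing transcripts. Length also went with the fold in genes that have only 1 start, where no choice of start is involved. Their median log2 fold was 0.29 in the 2220 genes with the shortest transcripts and -0.26 in the 2219 with the longest. The part of transcript length in the changes of share was not tested. Of 619 members with coding groups assigned to both starts, 386 had no group in common and 233 shared one. Noncoding transcripts were counted as a group of their own. The counts therefore include pairs with a noncoding start, as in B230312A22Rik and Rreb1, and are not counts of different proteins. With a change of 20 points or more these were 122 and 80 genes. Different coding sequences are annotated for the gaining and losing starts of Pik3r1, Limk2 and Tiam1. Gcnt1, Rbm43, Tcn2 and Satb1 have 1 coding sequence for all their expressed starts.

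Start windows of 300 bases (250 before and 50 after the start) could be tied to 695 member starts as their own. Their median CpG ratio, observed over expected, was 0.650 and their median G+C content 59.3%, against 0.383 and 52.7% over all 32817 windows in the reference. GGGCGG, searched on both strands, was found in 57.6% of the member windows and 35.6% of all windows, and TATAAA in 5.47% and 13.6%. TGACTCA, searched on both strands, was found in 4.75% and 5.20%. The member windows are those of starts at 1 FPKM or more, while the reference windows were not chosen by expression. The part of expression in these differences was not tested. In 79 genes with a change of 20 points or more and windows for both starts, the gaining windows had a median CpG ratio of 0.445 and the losing windows 0.701, and GGGCGG was in 33 and 55 of them. The losing start had the higher ratio in 48 of the 79 and the gaining start in 31. Among 99 pairs with a change under 10 points these counts were 60 and 39, and the medians were 0.702 at gaining and 0.718 at losing starts. The next counts keep only starts over 1000 bases apart, a cut chosen after seeing the data. For the 51 such pairs with a change of 20 points or more the medians were 0.324 and 0.734. The losing start had the higher ratio in 40 of them and the gaining start in 11. In the 44 pairs over 1000 bases apart with a change under 10 points the medians were 0.439 and 0.603, and the losing start was higher in 27. The printed pairs show the difference: the CpG ratio was 0.867 at the losing and 0.438 at the gaining start of Pik3r1, 0.641 and 0.164 in Gcnt1, and 0.751 and 0 in Aldoa, while in Tiam1 it was 0.424 and 0.470.

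**Figure D5:**
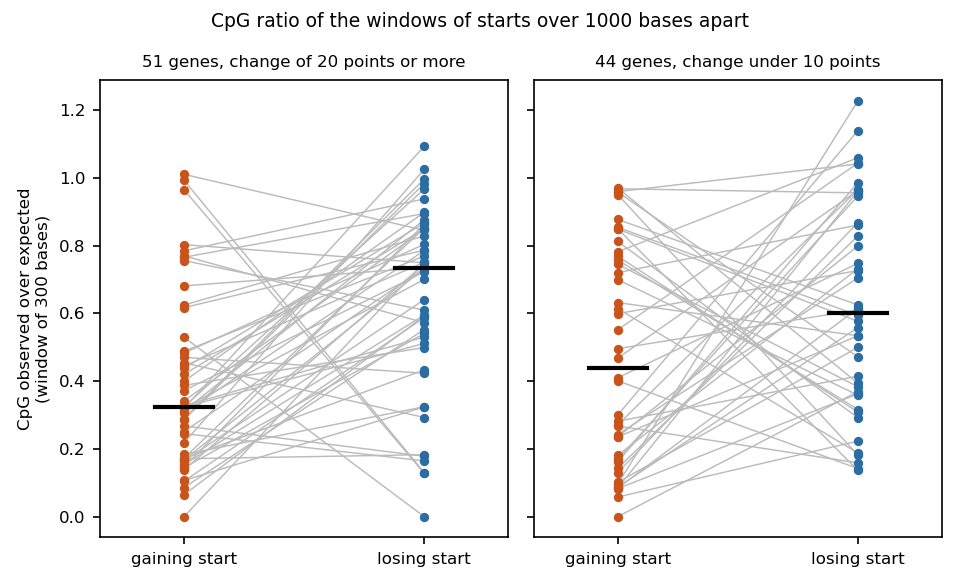
CpG ratio (observed over expected in windows of 300 bases, vertical axis) at the gaining start (orange) and the losing start (blue) of genes whose starts lie over 1000 bases apart, with a line per gene and a black bar at the median. At left are 51 genes with a change of 20 points or more (medians 0.324 and 0.734) and at right 44 genes with a change under 10 points (medians 0.439 and 0.603).

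The CArG box is a palindromic pattern, so 1 strand was searched. It was found in 5 of the 695 member windows (0.719%) and in 1.63% of all windows, which were not chosen by expression. The 5 starts belong to Tiam1, Rnf128, Ppm1b, Ccdc9 and Gm1604b, and all but Tiam1 are named after their values were seen. In Tiam1 the box CCTATTTAGG spans bases 7 to 16 after the start, counted from 1 at the start, and this is the start that was 8.42 FPKM in WT and 3.87 in Srf KO. In Rnf128 the box CCTAAAAAGG ends 208 bases before a start that was 2.67 FPKM in WT and 0.469 in Srf KO, called lower in the authors' deposited table (log2 fold -2.51 ± 0.70, adjusted p = 0.00225). The start of Ppm1b, a protein phosphatase gene, was 17.9 FPKM in WT and 20.4 in Srf KO with a share of 64.9% and 87.5%, and was not called. The starts in Ccdc9 and Gm1604b were not called either. A match describes letters in the window and not binding of the factor.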

How the data were processed

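Messenger RNA was sequenced from 4 sorted neutrophil samples, 2 per genotype, grouped by the genotype in the labels. The labels do not say whether samples are separate animals, and each p-value of the authors rests on these samples alone. Libraries used the TruSeq RNA v2 kit, which keeps no strand, so reads from antisense partners are mixed. The submitters' processing notes list TopHat2 2.0.0, Cufflinks 2.0.0, CASAVA 1.8.1 and the build mm10, per the labels, and their settings are not given in the sources used here. FPKM values of genes, isoforms, start groups and coding groups were deposited by the authors, 1 per genotype. Per the file headers the deposited log2 fold has WT on top, so the sign of each fold was reversed to give Srf KO over WT. Each row also has a deposited statistic (a score), p-value and q-value. The deposited q-value equals a Benjamini-Hochberg adjustment over 13042 tested start groups, and the call equals a q-value of at most 0.05.

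Shares, changes of share and implied standard errors (fold over statistic) were computed here. Gaining and losing starts are the expressed starts with the highest and lowest change. Planned per-sample tests were replaced by the authors' own, since pooled values allow no other. Start groups were matched to RefSeq transcripts by sums of isoform FPKM in both genotypes (1379 of 1385 expressed groups), and to GENCODE M21 positions (1277). Windows come from RefSeq on GRCm38.p6 where a start lies within 50 bases. Members and lists were chosen with earlier results of these data known. Named genes were the 12 with the largest change, up to 8 each whose leading start differs or whose starts have opposite calls, up to 3 per list, those with most starts, those with the smallest change at 50 FPKM or more, and those at the threshold. The results of 1 list are not reported here. Alternatives were other FPKM minimums, point and q thresholds, share definitions, 1 FPKM added, centred folds and, chosen after seeing the data, starts over 1000 bases apart. The matching of start groups to transcripts and the re-test of centred folds were tested on simulated data, and the shares were not. Computation used pandas 2.3.3 and numpy 2.4.6 under Python 3.11.15, with scipy 1.17.1, statsmodels 0.14.6 and matplotlib 3.10.9.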

Additional observations from a re-analysis of the deposited data

How the results depend on the processing

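Counts moved with the thresholds. With a minimum of 5 FPKM there were 277 members in place of 645, 175 genes with a change of 10 points or more in place of 342, and 87 genes whose leading start differs in place of 141. A limit of 20 points left 204 genes, and a lead of 10 points or more in both genotypes left 89. At a q-value of at most 0.01, 191 member starts were called in place of 289, 60 of them higher in place of 110, and 12 genes had opposite calls in place of 24. With starts over 1000 bases apart, chosen after seeing the data, the counts were 161 genes with a change of 10 points, 60 with a different leading start and 12 with opposite calls; fewer genes enter here by construction. Centring all folds on their median of 0.05 gave 282 called starts, 94 higher and 188 lower. With 1 FPKM added to each start, the change of share kept its sign and size in 40 of 50 named genes, moved in 7 (Gimap8, to 35.5 points, Ikbkg, Mkl1, Pdlim5, Rreb1, Sfmbt1 and Ttc15) and changed sign in 3 steady genes, to -0.0424 points in F13a1, -0.0317 in Lsp1 and -0.0716 in Ly6c1. No paired analysis was possible because each table holds 1 pooled value per genotype, and for the same reason analyses without each sample could not be run. Read depth is unknown, and starts with large implied standard errors limit what the shares show.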
